A study of Mus musculus with 23 samples.

Results

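The subunits of the respiratory chain and of the ATP synthase were followed gene by gene and complex by complex in CD11b+ cells of the mouse hippocampus. The members were all genes of the deposited count table whose symbol begins with Nduf (the assembly factors named Ndufaf left out), Uqcr, Cox4i, Cox5, Cox6, Cox7, Cox8, Atp5, mt-Nd, mt-Co, mt-Cyt or mt-Atp, together with *Sdha*, *Sdhb*, *Sdhc*, *Sdhd* and *Cyc1*. The 5 symbols marked as pseudogenes by the ending -ps were dropped. This gave 98 members among 18876 genes, and all 98 passed the filter on low counts (at least 5 counts in at least 3 libraries). Of these, 88 are encoded in the nucleus (40 of complex I, 4 of complex II, 9 of complex III, 17 of complex IV and 18 of complex V) and 10 in the mitochondrial genome (6 of complex I, 1 of complex III, 2 of complex IV and 1 of complex V). The mitochondrial genes *mt-Co2*, *mt-Atp8* and *mt-Nd4l* were not analysed here.

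All mice were female, carried 2 floxed alleles of *Slc11a2* (the gene of the iron transporter DMT1) and 1 allele of a tamoxifen-inducible Cre driven from the *Cx3cr1* locus, on a mixed 129S and C57BL/6J background. Slc11a2KD mice were given 4 mg of tamoxifen by gavage for 5 days at 5 to 6 months of age and Control mice were given 200 µL of corn oil, so that tamoxifen and the knockdown cannot be told apart. *APP/PS1* mice carried the APPswe and PSEN1dE9 transgenes, a model of amyloid deposition, and WT mice were their littermates without them. At 15 to 18 months of age, cells were taken from both hippocampi with magnetic beads against CD11b (an integrin carried by microglia and by myeloid cells in general), and their poly(A) RNA was sequenced in bulk, in Control mice for 6 WT and 6 *APP/PS1* libraries and in Slc11a2KD mice for 5 of each genotype. The seventh Control *APP/PS1* library, 0010, was removed as an outlier by the study and was kept only as an alternative. The lowest and highest total count on genes of a library were 31128643 and 54872491. The Slc11a2KD label was not visible in the total count of the targeted gene, which lay between 29.9 and 43.7 CPM (counts relative to the library total, scaled between libraries by the TMM method) in Control WT and between 27.1 and 38.1 CPM in Slc11a2KD WT. In *APP/PS1* mice the corresponding ranges were 40.0 to 48.2 CPM in Control and 37.8 to 75.1 CPM in Slc11a2KD. These totals also hold reads from exons that Cre leaves in place. The study itself reported loss of *Slc11a2* expression over the targeted exons in knockdown microglia, and checked the knockdown by RT-qPCR. The log2 differences of Slc11a2KD from Control were -0.04 ± 0.14 in WT and 0.39 ± 0.14 in *APP/PS1* (SE), and neither passed the test.

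Some libraries stood apart before any comparison was made. The library numbers run from 5 to 17 in Control mice and from 1 to 4 and 18 to 23 in Slc11a2KD mice, and whether they mark a shared preparation is not recorded in the labels. *Ttr*, a marker of choroid plexus epithelium, was high in Control WT 0012 and 0015 and in libraries 18 to 23. The summed level of 10 choroid plexus markers ranged from 1.09 to 1966 CPM in Control WT, from 1.30 to 5.41 CPM in Control *APP/PS1* (4 of the 10 genes at 0 in all 6 libraries), from 10.6 to 793 CPM in Slc11a2KD WT and from 2.30 to 488 CPM in Slc11a2KD *APP/PS1*. The sum of 10 microglial markers was higher in every WT library (43134 to 50855 CPM over both WT groups) than in every *APP/PS1* library (33492 to 40824 CPM). Markers of oligodendrocytes summed to between 677 and 2744 CPM in WT and 309 and 909 CPM in *APP/PS1* among Control libraries, and to between 942 and 3564 CPM and 492 and 1209 CPM among Slc11a2KD libraries. In bulk RNA, fewer cells of a type and less RNA per cell cannot be told apart. For choroid plexus, fits with a marker score as a covariate and without Control WT 0012 and 0015 are given below. The part of the other markers in the results that follow was not tested.

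The respiratory chain passes electrons from NADH (complex I) and succinate (complex II) through ubiquinone to complex III, by way of cytochrome c to complex IV, and on to oxygen, while complexes I, III and IV pump protons out of the mitochondrial matrix. ATP synthase (complex V) lets the protons flow back and makes ATP. Complexes I, III, IV and V are built from subunits of both genomes, with the most hydrophobic core subunits encoded in the mitochondrion, whereas complex II is wholly nuclear. Microglia use both glycolysis and oxidative phosphorylation, and the balance between them is known to shift with activation.

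In Control mice, 4 of the 98 members rose in *APP/PS1* against WT and 2 fell (edgeR quasi-likelihood test, Benjamini-Hochberg adjusted p under 0.05), where 5.99% of the 18759 genes tested rose and 4.48% fell. The share of members called was not above that of all genes in this fit of all 4 groups, and 82 of the 98 members had a positive difference. The count depended on the fit: with the 2 compared groups fitted alone, 47 of 96 members rose and 3 fell (11.3% of 17400 genes rose and 7.28% fell), and 35 of 98 rose with limma voom (11.1% of all genes), 36 with the library covariate (8.42%) and 26 with library 0010 kept (6.59%). The median log2 difference was 0.36 over the 88 nuclear members (1.28-fold) and -0.02 over all genes tested. By complex, the nuclear medians were 0.30 for complex I, 0.12 for complex II, 0.43 for complex III, 0.51 for complex IV and 0.37 for complex V. The 10 mitochondrial members went the other way, all of them with a negative difference, but without Control WT 0012 and 0015, the Control WT libraries with choroid plexus transcripts, 6 were negative and 4 positive. The 4 nuclear genes that rose were *Cox6a2*, *Ndufv3*, *Atp5f1d* and *Cox7a2*, and those that fell were *mt-Nd2* and *Cox8b*. All members' values in both genotype comparisons and both knockdown comparisons are shown in the plot of log2 differences by complex.

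**Figure D1:**
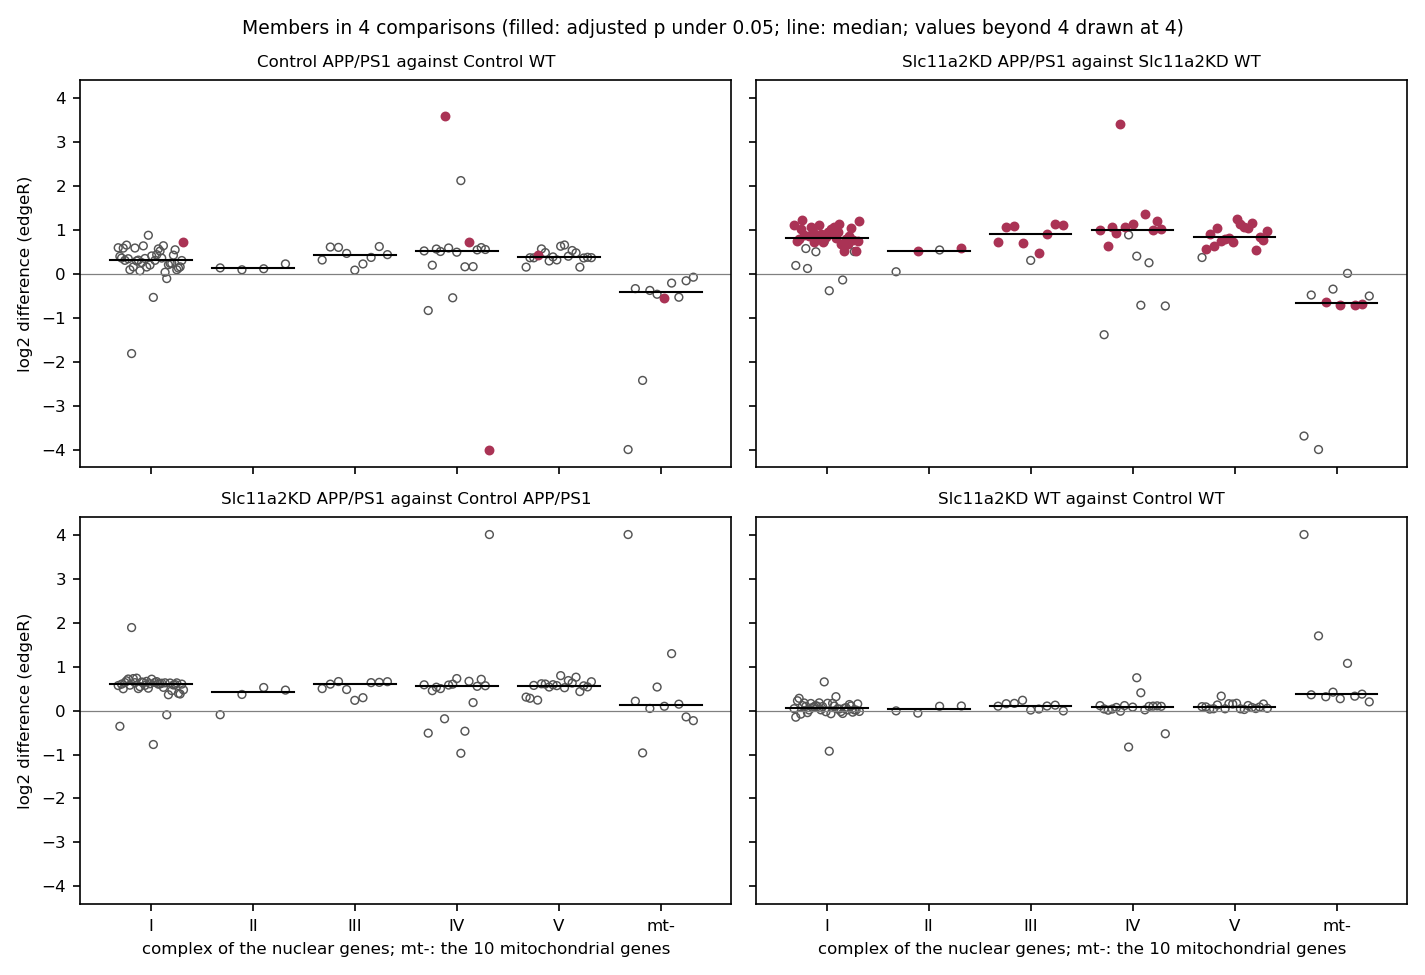
Log2 difference of each of the 98 members (y axis, edgeR) by complex of the nuclear genes and for the 10 mitochondrial genes (x axis) in 4 comparisons, with filled points for an adjusted p under 0.05, lines for medians, and values beyond 4 drawn at 4. Nuclear genes lie mostly above 0 in both comparisons of *APP/PS1* against WT, the mitochondrial genes lie below 0 in Control mice (10 of 10) and mostly so in Slc11a2KD mice (9 of 10), and no point is filled in the 2 comparisons of Slc11a2KD against Control.

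In Slc11a2KD mice, 70 members rose in *APP/PS1* against WT and 4 fell, where 9.77% of all genes tested rose and 6.41% fell. With the 2 compared groups fitted alone, 13 of 96 members rose and 3 fell (4.33% of 17060 genes rose and 1.78% fell), so that which treatment had more calls turned round with the fit, while the nuclear medians were 0.37 in Control mice and 0.85 in Slc11a2KD mice. All 70 that rose were nuclear, with 32 of 40 in complex I, 2 of 4 in complex II, 8 of 9 in complex III, 11 of 17 in complex IV and 17 of 18 in complex V, and all 4 that fell were mitochondrial. The median log2 difference was 0.82 over the nuclear members (1.77-fold) and -0.07 over all genes tested. The medians by complex were 0.80 for I, 0.52 for II, 0.90 for III, 0.99 for IV and 0.82 for V. The difference was larger in size in Slc11a2KD mice than in Control mice for 87 of 98 members and for 59.7% of all genes tested, but no member passed the test of the interaction (smallest adjusted p = 0.544 by edgeR, with 0.0% of all genes called). At an unadjusted p under 0.05, 11 members had a higher and 1 a lower interaction term, against 4.86% and 4.22% of all genes, and DESeq2 called 1 member higher, with 0.096% of all genes higher and 0.0373% lower.

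The count of 70 also depended on which Slc11a2KD libraries were set against each other. In the plot of the complexes by library, the nuclear members of libraries 18 to 23 lay above those of libraries 1 to 4 in each Slc11a2KD genotype. With genotype as a covariate, 78 of 96 members tested were higher in libraries 18 to 23 than in libraries 1 to 4 and 0 were lower, where 9.93% of genes were higher and 8.91% lower, and the nuclear median was 0.91 (1.88-fold). The first 4 libraries hold 1 *APP/PS1* library (0004) and 3 WT libraries. Without 0004 that count was 4 (0.544% of genes were then higher), and without Slc11a2KD WT 0022 it was 2 (0.262%). Among libraries 18 to 23 alone, 4 *APP/PS1* against 2 WT, only *Cox6a2* rose and only *mt-Nd2* fell among 95 members (1.68% of genes rose and 0.41% fell), with a nuclear median of 0.49 and 79 of 86 nuclear differences above 0. Between *APP/PS1* and WT in Slc11a2KD mice, 44 members rose without Slc11a2KD WT 0002 (6.7% of all genes), 44 without Slc11a2KD WT 0003 (6.78%) and 36 without Slc11a2KD *APP/PS1* 0021 (6.68%), so that the share of all genes fell as well.

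**Figure D2:**
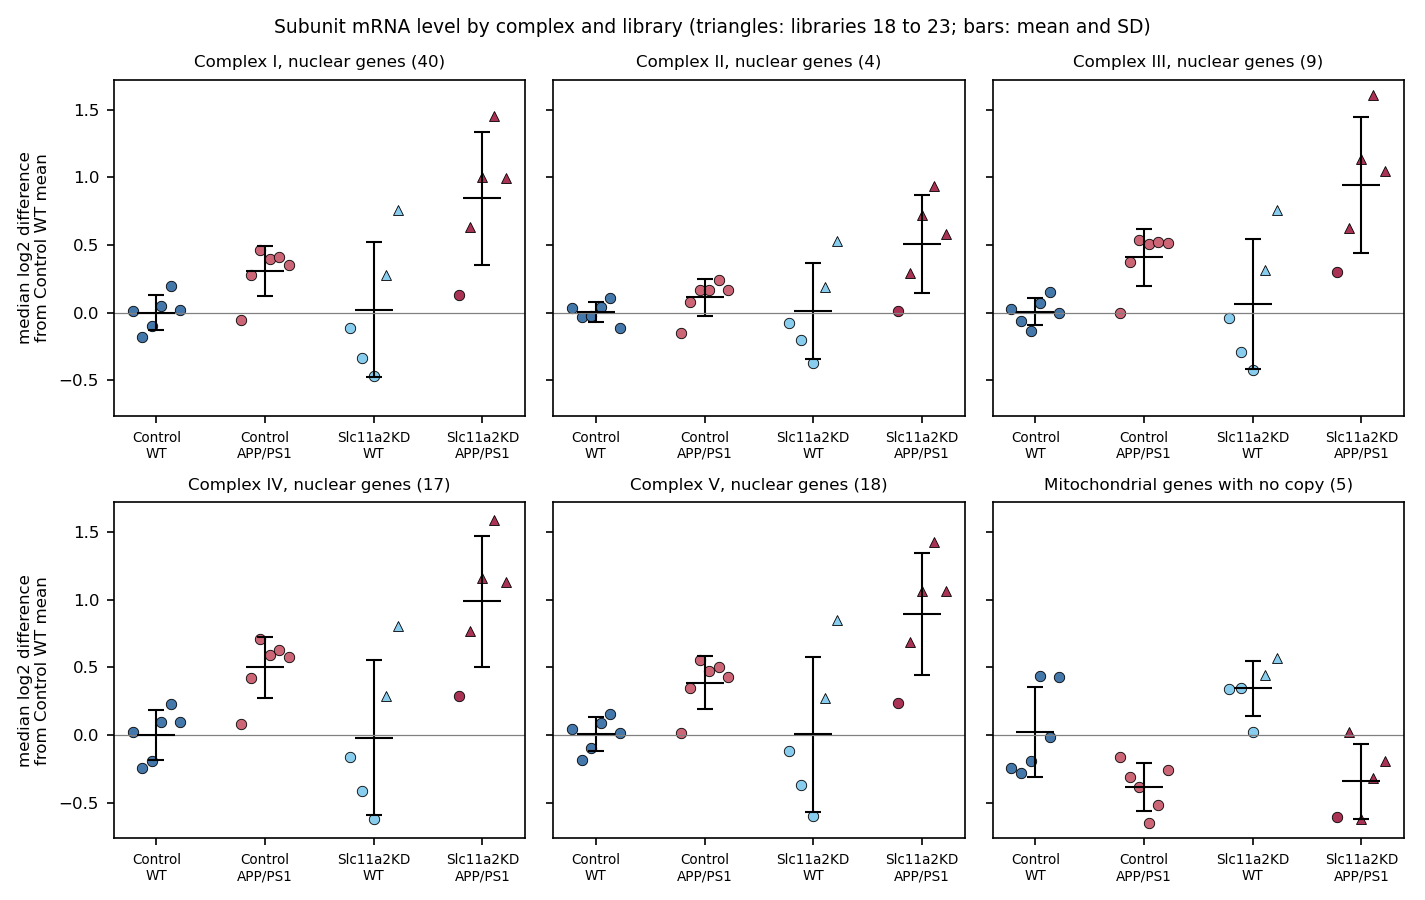
Median over each complex's genes of the log2 difference from the Control WT mean (y axis), 1 point per library, by group (x axis), with mean and SD as bars and triangles for libraries 18 to 23. The Control *APP/PS1* means lie above Control WT for each nuclear complex and below it for the mitochondrial genes, and the Slc11a2KD libraries spread widely for each nuclear complex, with 18 to 23 on top within each genotype.

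The mean of the nuclear medians per library was 0.00 ± 0.12 in Control WT (SD, n = 6), 0.35 ± 0.20 in Control *APP/PS1* (SD, n = 6), 0.01 ± 0.52 in Slc11a2KD WT (SD, n = 5) and 0.88 ± 0.47 in Slc11a2KD *APP/PS1* (SD, n = 5), all as log2 differences from the Control WT mean. The spread in the Slc11a2KD groups was thus wider than in either Control group. Control *APP/PS1* 0005, at -0.03, was the only library of its group within the Control WT range. The removed library 0010 stood at 1.39, above all 6 of its group.

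Members are short genes as a class, and 56 of the 98 have a median coding transcript under 1 kb. Genes outside the list differed by length in the same comparison. Between *APP/PS1* and WT in Slc11a2KD mice, the median log2 difference of the 3374 other genes under 1 kb was 0.45 and that of the 4757 other genes over 4 kb was -0.39, against 0.88 for the 56 members under 1 kb. In Control mice these medians were 0.15, -0.07 and 0.40. When length and GC content were corrected for, 41 members were called higher and 5 lower in Slc11a2KD mice (nuclear median 0.37), where 7.76% of all genes were higher and 6.45% lower. In Control mice 13 were called higher and 2 lower (nuclear median 0.14), where 5.81% of all genes were higher and 6.83% lower. Some nuclear members are also uncertain because near-identical copies elsewhere in the genome (99% identity or more) cover part of their transcript. The share was 100% for *Ndufb4c*, 91.0% for *Ndufs5*, 89.2% for *Atp5mc2*, 85.8% for *Atp5mc1*, 74.1% for *Cox7c* and 65.1% for *Atp5mg*. It was 55.6% for *Cox5b*, 49.8% for *Ndufb4*, 36.7% for *Ndufab1*, and 8.3% or less for *Atp5mk*, *Atp5mj* and *Atp5pf*.

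Complex I takes electrons from NADH, and its nuclear part was higher by a median of 0.30 in Control *APP/PS1* and of 0.80 in Slc11a2KD *APP/PS1* against the WT group of the same treatment. *Ndufv3*, a subunit of the NADH-binding arm (chr17:31739052-31751735), ranged from 26.1 to 35.3 CPM in Control WT (median 30.0) and from 36.1 to 56.9 CPM in Control *APP/PS1* (median 49.4). In Slc11a2KD WT it was 30.8, 19.8, 18.0, 33.7 and 44.2 CPM (0001, 0002, 0003, 0019 and 0022), and in Slc11a2KD *APP/PS1* 45.5, 56.8, 72.7, 91.4 and 70.5 CPM (0004, 0018, 0020, 0021 and 0023). The groups overlapped under neither treatment, with log2 differences of 0.71 ± 0.19 (SE, adjusted p = 0.0158, edgeR) and 1.20 ± 0.21 (SE, adjusted p = 0.000377). Among libraries 18 to 23 alone the difference was 0.89 and no longer passed.

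*Ndufa1* and *Ndufa13*, small accessory subunits, rose in Slc11a2KD *APP/PS1* by log2 differences of 1.11 ± 0.22 (SE, edgeR adjusted p = 0.00155) and 1.02 ± 0.20 (SE, adjusted p = 0.00114). In Control mice, *Ndufa1* was 59.6 to 88.2 CPM in WT and 90.2 to 122 CPM in *APP/PS1*, without overlap, at a difference of 0.59 ± 0.20 that did not pass (adjusted p = 0.0672). *Ndufs1*, the largest iron-sulfur subunit, kept near 1 level: it ranged from 51.5 to 71.5 CPM in Control WT and from 52.8 to 59.5 CPM in Control *APP/PS1*. Its difference in Slc11a2KD mice was -0.15 ± 0.10 (adjusted p = 0.351). *Ndufa10*, an accessory subunit of the membrane arm, did not follow the others, with 26.2 to 30.8 CPM in Control WT and 31.4 to 42.7 CPM in Control *APP/PS1* but 0.18 ± 0.14 (adjusted p = 0.406) between the Slc11a2KD groups. *Ndufa4*, named after complex I but known as a subunit of complex IV, differed by 0.57 in Slc11a2KD mice and did not pass (adjusted p = 0.0683).

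Complex II, the succinate dehydrogenase that is also part of the citric acid cycle, had the smallest median of the nuclear complexes in both genotype comparisons. *Sdha*, its flavin-carrying catalytic subunit, ranged from 209 to 274 CPM in Control WT (median 250.3) and from 253 to 274 CPM in Control *APP/PS1* (median 271). In Slc11a2KD WT it was 238, 237, 246, 228 and 272 CPM and in Slc11a2KD *APP/PS1* 270.1, 248, 251, 226 and 261 CPM, so the groups overlapped under both treatments. The log2 differences were 0.13 ± 0.08 (adjusted p = 0.35, edgeR) and 0.04 ± 0.09 (adjusted p = 0.809). *Sdhb*, the iron-sulfur subunit, was 59.3, 57.4, 60.7, 80.7 and 97.2 CPM in Slc11a2KD WT and 73.1, 86.9, 119.6, 128 and 98.5 CPM in Slc11a2KD *APP/PS1*. It rose by 0.51 ± 0.15 (adjusted p = 0.0243), as did the membrane anchor *Sdhd* by 0.58 (adjusted p = 0.0477), while the other anchor, *Sdhc*, differed by 0.54 without passing (adjusted p = 0.0644).

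Complex III, the cytochrome bc1 complex, had 9 nuclear members with positive differences in both genotype comparisons. In the fit of all 4 groups, 0 of them were called in Control mice (5.99% of all genes rose) and 8 in Slc11a2KD mice (9.77%). Over all members, which treatment had more calls turned round when only the compared groups were fitted. The small subunit *Uqcrq* ranged from 60.7 to 92.0 CPM in Control WT and from 77.6 to 114 CPM in Control *APP/PS1*. It was 66.2, 63.5, 42.3, 84.6 and 118 CPM in Slc11a2KD WT and 91.8, 138, 169.8, 228 and 173 CPM in Slc11a2KD *APP/PS1*. The Slc11a2KD groups overlapped through WT 0022 and *APP/PS1* 0004, and the log2 difference was 1.10 ± 0.22 (SE, edgeR adjusted p = 0.00179). *Uqcr10* and *Uqcr11* rose by 1.05 and 1.09. The catalytic cytochrome *Cyc1* rose by 0.71 ± 0.19 (adjusted p = 0.0139), and the core subunit *Uqcrc1* differed by 0.30 ± 0.12 and did not pass (adjusted p = 0.0975). *Cycs*, the cytochrome c that carries electrons on to complex IV and is itself no member, rose by 0.67 ± 0.15 in the same comparison (adjusted p = 0.00432).

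Complex IV, the cytochrome c oxidase, held the member with the largest rise in both genotype comparisons. *Cox6a2* is known as the heart and skeletal muscle isoform of subunit VIa, and *Cox6a1* is the isoform of most other tissues. *Cox6a2* ranged from 1.74 to 5.83 CPM in Control WT (median 2.78) and from 26.7 to 62.7 CPM in Control *APP/PS1* (median 34.6). In Slc11a2KD WT it was 5.62, 3.78, 0.656, 1.95 and 3.69 CPM, and in Slc11a2KD *APP/PS1* 25.7, 33.8, 41.5, 44.9 and 20.3 CPM. Every *APP/PS1* library was above every WT library. The means were 3.17 ± 1.45 CPM (SD, n = 6), 37.9 ± 12.7 CPM (SD, n = 6), 3.14 ± 1.90 CPM (SD, n = 5) and 33.2 ± 10.3 CPM (SD, n = 5), with WT before *APP/PS1* and Control before Slc11a2KD. The log2 difference of *APP/PS1* from WT was 3.57 ± 0.38 in Control mice (SE, adjusted p = 4.98e-07, edgeR) and 3.40 ± 0.41 in Slc11a2KD mice (SE, adjusted p = 4.74e-06). It was 3.62 among libraries 18 to 23 alone (adjusted p = 0.00241), and it was called under every alternative tried.

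Even in *APP/PS1*, *Cox6a1* remained the more abundant isoform. Per kilobase of the median annotated coding transcript, the median level of *Cox6a1* was 264 CPM per kb in WT and 368 in *APP/PS1* among Control mice and 262 and 503 among Slc11a2KD mice. That of *Cox6a2* was 6.48 and 80.6 CPM per kb among Control mice and 8.59 and 78.7 among Slc11a2KD mice. *Cox6a1* rose by a log2 difference of 0.93 ± 0.19 in Slc11a2KD *APP/PS1* (edgeR adjusted p = 0.0019), and in Control mice its groups did not overlap (96.7 to 159 CPM against 160.1 to 193 CPM) at 0.50 ± 0.17 (adjusted p = 0.0685). The upstream sequences of both isoforms are given because their expression differed so much. They are the 250 bases of GRCm39 before the start annotated by GENCODE, 5′ to 3′ on the minus strand on which both genes lie. The positions are chr7:127805560-127805809 for *Cox6a2* and chr5:115487041-115487290 for *Cox6a1*. Capitals mark CTAAAAATAG, which matches the consensus of the transcription factor MEF2, starting 28 bases before the start of *Cox6a2*. They also mark CGCATGCG, the core of the motif of NRF1, a regulator of many respiratory genes, starting 138 bases before the start of *Cox6a1*:
Cox6a2: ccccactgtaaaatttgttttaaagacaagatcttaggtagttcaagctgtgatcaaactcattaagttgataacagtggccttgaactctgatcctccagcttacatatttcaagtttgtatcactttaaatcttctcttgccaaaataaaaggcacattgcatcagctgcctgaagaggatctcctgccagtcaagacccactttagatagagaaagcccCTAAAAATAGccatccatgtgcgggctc
Cox6a1: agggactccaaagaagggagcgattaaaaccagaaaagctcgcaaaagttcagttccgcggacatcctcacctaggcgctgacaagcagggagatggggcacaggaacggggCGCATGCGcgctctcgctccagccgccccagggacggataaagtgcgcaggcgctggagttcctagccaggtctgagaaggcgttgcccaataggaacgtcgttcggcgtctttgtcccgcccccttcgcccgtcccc

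Searched on both strands in windows of 250 bases, the MEF2 consensus was in 608 of 21757 promoters (2.79%) and in 1 of the 86 member promoters that could be matched, that of *Cox6a2*. CGCATGCG was in 3 of the 86 (3.49%), against 1.83% of all promoters. The ETS motif CCGGAAG was in 6 of the 86 (6.98%), against 6.89% of all, and the YY1 motif AAGATGGC was in 0 of the 86, against 1.34% of all. These letters describe the windows only.

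*Cox6a2* lies on chromosome 7 (chr7:127804607-127805559, minus strand) within the span of *Itgad* (chr7:127753548-127822988, plus strand), an integrin gene, and 54.8 kb from *Itgax* (chr7:127728668-127749829, plus strand), which encodes CD11c, a marker of microglia near amyloid plaques. It shares 10.2% of its exon bases with other genes. Whether counting used the strand is not given in the sources used here, so reads of *Itgad* over the shared bases could not be told apart. *Itgad* had between 0 and 692 counts per library and a highest level of 14.8 CPM, in Control *APP/PS1*. Its median was 0 CPM in Control WT, 0.201 CPM in Control *APP/PS1*, 0.0262 CPM in Slc11a2KD WT and 0.313 CPM in Slc11a2KD *APP/PS1*. The Control *APP/PS1* mean was 2.85 ± 5.87 CPM (SD, n = 6). *Itgax* had median levels of 26.3 CPM in WT and 316 CPM in *APP/PS1* among Control mice and of 16.7 and 184 CPM among Slc11a2KD mice, and rose in *APP/PS1* by 3.10 ± 0.42 in Control mice (SE, adjusted p = 1.76e-05, edgeR) and 3.39 ± 0.47 in Slc11a2KD mice (SE, adjusted p = 2.74e-05). *Itgad* itself differed by 4.40 ± 1.68 in Control mice (adjusted p = 0.0995) and 1.86 ± 1.69 in Slc11a2KD mice (adjusted p = 0.499), the same direction as *Cox6a2*. Other genes of the region varied. *Itgam*, which encodes CD11b, 86.9 kb away, differed by -0.65 ± 0.25 (adjusted p = 0.104) and -0.74 ± 0.28 (adjusted p = 0.0707), and *Armc5*, 30.9 kb away on the other side, by 0.09 and -0.10 (adjusted p = 0.704 and 0.637). The next gene, *Rusf1*, 65.0 kb away, rose by 0.62 and 0.60 (adjusted p = 0.0319 and 0.0479). These neighbors were looked up after the values of *Cox6a2* had been seen.

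**Figure D3:**
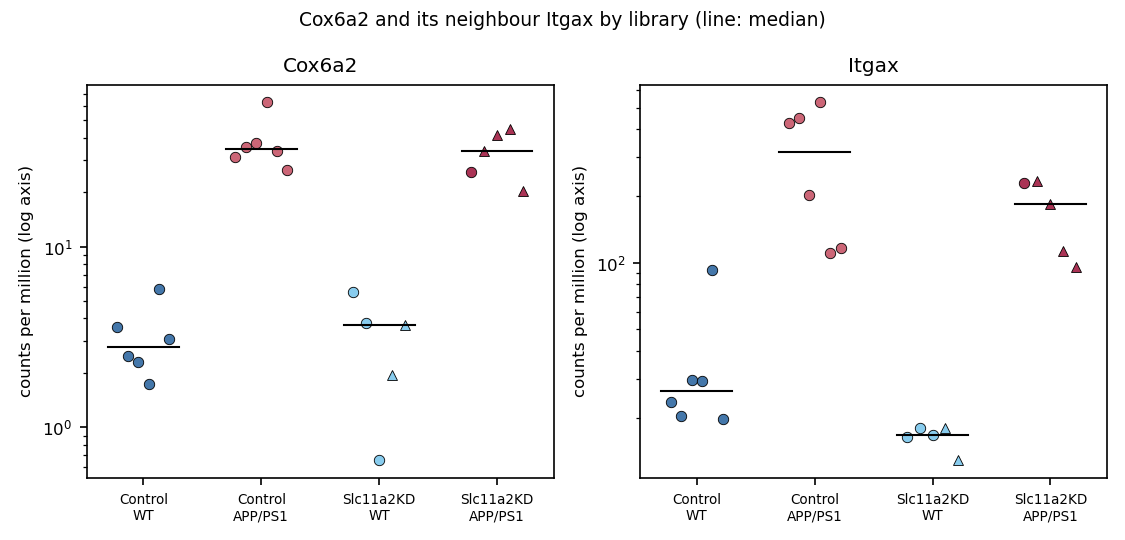
CPM of *Cox6a2* (left) and *Itgax* (right) on log axes (y), 1 point per library by group (x axis), with lines for medians and triangles for libraries 18 to 23. Both genes are higher in every *APP/PS1* library than in every WT library, and *Cox6a2* does not exceed 5.83 CPM in any WT library.

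Among the other subunits of complex IV, *Cox7a2* ranged from 56.4 to 80.6 CPM in Control WT and from 84.6 to 141 CPM in Control *APP/PS1*, without overlap (log2 difference 0.71 ± 0.23, adjusted p = 0.0452, edgeR). When the Control libraries were left out 1 at a time, that call held only without *APP/PS1* 0005 and without WT 0014, with log2 differences between 0.64 and 0.79 over all of these fits. In Slc11a2KD WT *Cox7a2* was 62.3, 47.0, 42.9, 92.3 and 109.9 CPM and in Slc11a2KD *APP/PS1* 102, 125, 207, 286 and 191 CPM, a rise of 1.36 ± 0.25 (SE, adjusted p = 0.0007) in which WT 0022 lay above *APP/PS1* 0004. *Cox4i1*, a subunit added early in assembly, was 639, 538, 467, 882 and 1351 CPM in Slc11a2KD WT and 884, 1223, 1661, 2207 and 1713 CPM in Slc11a2KD *APP/PS1*, a rise of 0.99 ± 0.24 (SE, adjusted p = 0.00567). *Cox7c* rose by 1.19 ± 0.26 (adjusted p = 0.00332), and *Cox7a2l*, which joins complexes III and IV into supercomplexes, differed by 0.25 (adjusted p = 0.615).

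The isoforms of other tissues were close to absent, except *Cox6a2*. *Cox4i2*, a lung and hypoxia isoform, did not exceed 1.54 CPM in any library, *Cox7a1*, a muscle isoform, 1.81 CPM, *Ndufa4l2* 4.02 CPM and the testis isoform *Cox6b2* 5.77 CPM. *Cox8b*, another heart and muscle isoform, had 347 counts in Control WT 0012, 128 in 0015 and 0 in the other 4 Control WT libraries and in all 6 Control *APP/PS1* libraries. Its call as lower in Control *APP/PS1* (adjusted p = 0.043) thus rested on 0012 and 0015, the Control WT libraries with choroid plexus transcripts, and no fold change is given. In Slc11a2KD mice *Cox8b* was found in WT 0019 (231 counts) and 0022 (51 counts) and in *APP/PS1* 0018, 0020 and 0023 (45 to 60 counts), all of them among libraries 18 to 23.

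Complex V, the ATP synthase, had 18 nuclear members, all with positive differences in both genotype comparisons. *Atp5f1d*, the delta subunit of the rotating stalk (chr10:79974466-79981652), ranged from 61.2 to 87.0 CPM in Control WT and from 91.4 to 109 CPM in Control *APP/PS1*, and it rose by 0.42 ± 0.12 (SE, adjusted p = 0.0188, edgeR). That call was lost without Control WT 0009. It was 84.5, 71.4, 59.1, 91.4 and 85.6 CPM in Slc11a2KD WT and 94.0, 121, 124, 121 and 141 CPM in Slc11a2KD *APP/PS1*, again without overlap (0.62 ± 0.13, adjusted p = 0.00184). *Atp5me*, the small membrane subunit e, was 53.0, 41.4, 36.2, 71.3 and 106 CPM in Slc11a2KD WT and 78.0, 121, 146, 247 and 140.3 CPM in Slc11a2KD *APP/PS1*, a rise of 1.25 ± 0.26 (SE, adjusted p = 0.00216) with overlap through WT 0022. The catalytic subunit *Atp5f1b* rose by 0.56 ± 0.14 (adjusted p = 0.00668), and its partner *Atp5f1a* differed by 0.36 ± 0.13 and was the only nuclear member of complex V that did not pass (adjusted p = 0.0553). *Atp5if1*, the inhibitor that stops the enzyme from consuming ATP, rose by 0.75 (adjusted p = 0.0157).

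Counted by overlap alone, 11 members had every Control *APP/PS1* library above every Control WT library, where 5.33% of all genes did, and 0 had every library below, where 3.03% did. The 11 were *Ndufa1*, *Ndufa10*, *Ndufv3*, *Uqcr10*, *Cox6a1*, *Cox6a2*, *Cox6b1*, *Cox7a2*, *Atp5f1b*, *Atp5f1d* and *Atp5mf*. In Slc11a2KD mice there were 3 (*Ndufv3*, *Cox6a2* and *Atp5f1d*), where 4.18% of all genes did, and 3 mitochondrial members lay below without overlap (*mt-Nd2*, *mt-Nd5* and *mt-Cytb*), where 2.88% did.

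The 10 mitochondrial members differ in how well they can be counted. A stretch of chromosome 1 holds a nuclear copy of part of the mitochondrial genome, and reads that fit both places equally are left out when only uniquely mapped reads are counted. At 99% identity or more, the copy covers 100% of *mt-Atp6* and *mt-Co3*, 99.1% of *mt-Nd3*, 63.6% of *mt-Nd4*, 31.3% of *mt-Co1* and none of *mt-Nd1*, *mt-Nd2*, *mt-Nd5*, *mt-Nd6* and *mt-Cytb*. The following 60-base stretches, from GRCm39 and 5′ to 3′ in the sense of the gene, show how alike the sequences are. The first pair is the start of *mt-Atp6* and its copy, without a mismatch. The second pair is a stretch of *mt-Co1* and its copy, where the capital marks the 1 base that differs over 483 bases:
mt-Atp6, chrM:7927-7986: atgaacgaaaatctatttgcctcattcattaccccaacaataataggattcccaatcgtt
copy, chr1:24653673-24653732, minus strand: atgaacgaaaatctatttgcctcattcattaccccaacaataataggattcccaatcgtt
mt-Co1, chrM:6390-6449: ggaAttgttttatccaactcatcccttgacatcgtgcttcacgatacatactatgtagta
copy, chr1:24655210-24655269, minus strand: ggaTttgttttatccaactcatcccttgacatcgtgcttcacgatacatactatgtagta

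Levels per kilobase differed widely among the 10 genes and were lowest for the 3 that the copy covers nearly whole. Over the 22 libraries the median was 2585 CPM per kb for *mt-Co1*, 2128 for *mt-Nd1*, 1559 for *mt-Cytb*, 795 for *mt-Nd2*, 285 for *mt-Nd4*, 252 for *mt-Nd5* and 18.0 for *mt-Nd6*, the only one of these encoded on the other strand. It was 1.83 CPM per kb for *mt-Nd3*, 0.528 for *mt-Co3* and 0 for *mt-Atp6*. *mt-Atp6* and *mt-Co3* were high in 1 or 2 libraries only. *mt-Atp6* had 2988 counts in Slc11a2KD WT 0019 and at most 121 in any other library, and *mt-Co3* had 7376 counts in Slc11a2KD WT 0022 and 2732 in Control WT 0012. Medians of the mitochondrial group are therefore given for the 5 genes with no copy.

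These 5 genes had median log2 differences of -0.38 for *APP/PS1* against WT in Control mice and of -0.65 in Slc11a2KD mice. The Control value moved with the choroid plexus libraries: without Control WT 0012 and 0015 it was -0.24, with 3 of the 5 genes negative. In that fit 0 of the 5 were called, where 4.23% of all genes rose and 2.68% fell. *mt-Nd2*, a core subunit of the membrane arm of complex I, ranged from 797 to 1328 CPM in Control WT (median 884) and from 551 to 837 CPM in Control *APP/PS1* (median 693). In Slc11a2KD WT it was 1136, 1114, 992, 1339 and 1450.3 CPM and in Slc11a2KD *APP/PS1* 579.6, 842, 601, 783 and 855 CPM. The groups overlapped in Control mice and not in Slc11a2KD mice, and *mt-Nd2* fell by 0.55 ± 0.15 (SE, adjusted p = 0.0224, edgeR) and by 0.72 ± 0.17 (SE, adjusted p = 0.0053). The first of these calls was lost without Control WT 0012, Control WT 0015, Control *APP/PS1* 0013 or Control *APP/PS1* 0016, and 0012 and 0015 had the 2 highest levels in Control WT. The second held among libraries 18 to 23 alone, at -0.86 (adjusted p = 0.0498).

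*mt-Cytb*, the catalytic core of complex III, was 2503, 2513, 1965, 2396 and 3099.8 CPM in Slc11a2KD WT and 1295, 1646, 1285, 1816 and 1915 CPM in Slc11a2KD *APP/PS1*, and fell by 0.65 ± 0.16 (SE, adjusted p = 0.00602, edgeR). *mt-Nd5*, another membrane subunit, was 679, 740.1, 609.99, 699 and 671 CPM against 437, 522, 332, 396 and 433 CPM and fell by 0.68 ± 0.17 (SE, adjusted p = 0.00875). Neither gene overlapped between these groups. *mt-Nd4*, with a partial copy, fell by 0.72 ± 0.20 (adjusted p = 0.0138). *mt-Co1*, the catalytic subunit of complex IV, differed by -0.49 ± 0.17 (adjusted p = 0.0552), *mt-Nd6* by -0.51 ± 0.23 (adjusted p = 0.135) and *mt-Nd1* by -0.35 ± 0.23 (adjusted p = 0.312), with overlap.

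**Figure D4:**
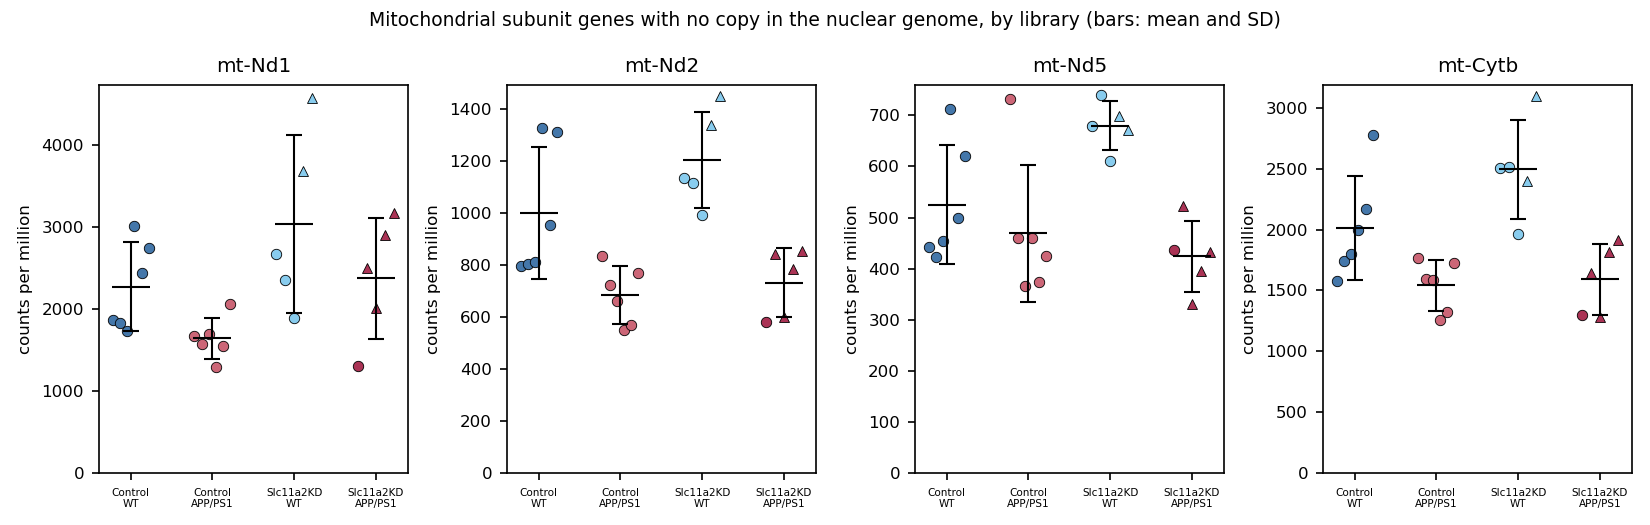
CPM (y axis) of 4 mitochondrial genes with no near-identical nuclear copy, 1 point per library by group (x axis), with mean and SD as bars and triangles for libraries 18 to 23. The 5 Slc11a2KD WT libraries lie above the 5 Slc11a2KD *APP/PS1* libraries for *mt-Nd2*, *mt-Nd5* and *mt-Cytb*, and the groups overlap for *mt-Nd1*.

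The balance between the genomes was described for each library by the nuclear median minus the median of the 5 mitochondrial genes. It lay between -0.40 and 0.27 in Control WT, between 0.13 and 1.11 in Control *APP/PS1*, between -0.70 and 0.19 in Slc11a2KD WT and between 0.66 and 1.76 in Slc11a2KD *APP/PS1*. The Slc11a2KD groups did not overlap, and the Control groups overlapped through *APP/PS1* 0005 alone. Control WT 0012 and 0015 had the 2 lowest values of their group, and the other 4 lay between 0.08 and 0.27. All mitochondrial members together made up 1.13% ± 0.23 of the counts in Control WT (SD, n = 6), 0.81% ± 0.11 in Control *APP/PS1* (SD, n = 6), 1.41% ± 0.17 in Slc11a2KD WT (SD, n = 5) and 0.87% ± 0.17 in Slc11a2KD *APP/PS1* (SD, n = 5). Without 0012 and 0015 it was 1.00% ± 0.12 in Control WT (SD, n = 4). Between libraries 18 to 23 and 1 to 4, the median difference of the 5 mitochondrial members with no copy was 0.31, positive like that of the nuclear members.

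**Figure D5:**
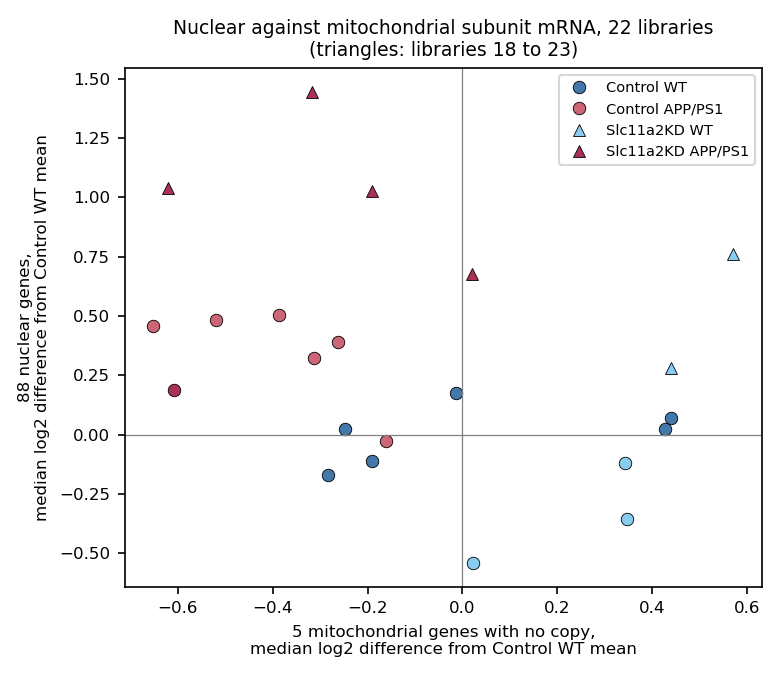
Median log2 difference from the Control WT mean of the 88 nuclear members (y axis) against that of the 5 mitochondrial members with no copy (x axis), 1 point per library for the 22 libraries, with triangles for libraries 18 to 23. Most *APP/PS1* libraries lie to the upper left, with Control *APP/PS1* 0005 near the WT libraries at -0.16 and -0.03.

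The 2 genotype comparisons share no library, so their values were set side by side. The sign was the same for 94 of 98 members (95.9%) and for 67.8% of all genes tested. The members called with the same sign in both were *Atp5f1d*, *Cox6a2*, *Cox7a2*, *Ndufv3* and *mt-Nd2*, which are 83.3% of the 6 called in Control mice and 6.76% of the 74 called in Slc11a2KD mice. Over all genes these shares were 62.4% and 40.4%.

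Slc11a2KD mice were also compared with Control mice within each genotype. This contrast joins the knockdown with tamoxifen and with the runs of library numbers. In WT mice, 0 members were called (edgeR, smallest adjusted p = 0.715, 0.0% of all genes called), as by DESeq2 and limma voom, and the nuclear median was 0.08. At an unadjusted p under 0.05 there were 4 members, all higher and all mitochondrial (*mt-Nd5*, *mt-Cytb*, *mt-Co1* and *mt-Atp6*), where 3.06% of all genes were higher and 2.86% lower. All 10 mitochondrial members had positive differences here. In *APP/PS1* mice, edgeR again called 0 members (smallest adjusted p = 0.205, 0.0% of all genes called), limma voom called 0 and DESeq2 called 39, all higher, where DESeq2 called 2.39% of all genes higher and 0.698% lower. At an unadjusted p under 0.05, 76 members were higher and 1 lower, where 10.8% of all genes were higher and 9.74% lower, and the nuclear median was 0.58.

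Slc11a2KD *APP/PS1* 0004 decided that last result. Without it, 69 members rose and 1 (*Ndufa10*) fell in Slc11a2KD *APP/PS1* against Control *APP/PS1*, where 7.34% of all genes rose and 9.07% fell, and the nuclear median was 0.71. The 4 libraries that remain are all from 18 to 23. With the library numbers 18 to 23 as a covariate in all 22 libraries, the nuclear median of this comparison was -0.19 and 0 members were called.

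Other genes of the same machinery were taken from 3 lists. Of 47 assembly factors tested (48 listed), the proteins that build the complexes without staying in them, 1 rose in Control *APP/PS1* (*Coa5*, 0.51, edgeR adjusted p = 0.0021), where 5.99% of all genes rose, and 13 rose and 0 fell in Slc11a2KD *APP/PS1* against Slc11a2KD WT (9.77% of all genes rose), with a median of 0.36. Those that rose included *Pet100* (1.14) and *Ndufaf8* (1.02), factors of complex IV and complex I, and *Coa6* (1.00). The largest difference over all 47 tested, called or not, was 1.58. Between libraries 18 to 23 and 1 to 4, 15 assembly factors were higher, against 9.93% of all genes. Of 22 genes for upkeep and transcription of mitochondrial DNA, 0 were called in Control mice (2 higher and 1 lower at an unadjusted p under 0.05) and 2 rose in Slc11a2KD *APP/PS1*, a share near the 9.77% of all genes that rose. These were *Slirp* (0.94, adjusted p = 0.0126), which stabilizes mitochondrial mRNA, and *Ssbp1* (0.79, adjusted p = 0.0127), which binds single-stranded mitochondrial DNA.

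Of 12 nuclear regulators of respiratory genes, *Hif1a*, the oxygen-sensing factor that favors glycolysis, rose in *APP/PS1* by 2.04 ± 0.13 in Control mice (SE, adjusted p = 4.66e-10, edgeR) and by 1.78 ± 0.14 in Slc11a2KD mice (SE, adjusted p = 1.88e-08). Its median level was 122 CPM in WT and 488 CPM in *APP/PS1* among Control mice and 111 and 390 CPM among Slc11a2KD mice, without overlap between the genotypes. *Gabpb1* and *Gabpa*, the subunits of the nuclear respiratory factor GABP, each fell in 1 comparison: *Gabpb1* by 0.49 in Control *APP/PS1* (adjusted p = 0.00177) and *Gabpa* by 0.57 in Slc11a2KD *APP/PS1* (adjusted p = 0.0402). *Tfeb*, a regulator of lysosomes and mitophagy, fell by 0.34 in Control *APP/PS1* (adjusted p = 0.0417).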

How the data were processed

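RNA was measured in bulk, 1 library per sample. The authors trimmed the reads with Trim Galore 0.6.7, aligned them to mm39 with STAR and counted them on genes (GENCODE M31), and the deposited counts were not normalized. Whether counting used the strand was not given in the sources used here. The second deposited table, a signal, holds the same counts divided by 1 size factor per library (largest relative gap 5e-15) and was used for this check alone. The number of per-sample columns left unused was 0.

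Counts of 22 libraries were scaled by TMM and fitted with edgeR 4.0.16 (R 4.3.3, quasi-likelihood, 4 groups in 1 fit, no covariate) for 18759 genes that reached 5 counts in 3 or more libraries. P-values were two-sided and were adjusted over the whole table (Benjamini-Hochberg), with a threshold of 0.05, and the standard error was the log2 difference divided by the square root of F. Nothing in the labels ties libraries to litters, so p-values measure the spread between these samples. Depth was 31128643 to 54872491 counts, and no pair of libraries was alike enough to be a duplicate. The steps were tested on simulated data.

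Levels per library were medians over genes of the log2 CPM difference from the Control WT mean, with a small constant added to CPM. A prior count of 2 was used for the choroid plexus score and for the length and GC correction. Positions and transcript starts came from the GENCODE annotation of GRCm39, and promoter sequences were cut from GRCm39 before those starts. Nuclear copies were sought at 99% identity over at least 100 bases. The members, the lists of assembly factors, of mitochondrial DNA upkeep, of nuclear regulators and of cell type markers were chosen with earlier results of these data known. The MEF2 motif, the neighbors of *Cox6a2* and 2 alternatives (libraries 18 to 23 alone, and Control WT 0012 and 0015 left out) were added after the values had been seen. Genes were named by rule: all mitochondrial members, complex II, *Cyc1*, *Cycs*, the isoforms of other tissues, and for each comparison and nuclear complex the 3 members with the smallest p. Others named in the text were chosen after their values were seen. The alternatives were DESeq2 1.42.0, its size factors in edgeR, limma voom 3.58.1, scaling over nuclear genes, other filters, only the compared groups, library 0010 kept, covariates for libraries 18 to 23 and for choroid plexus markers, a correction for length and GC content, and each library left out.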

Additional observations from a re-analysis of the deposited data

Results flagged for a closer look

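Within a group, a library whose gap to the nearest other was large for the group's range (Dixon's test, 95% critical value) was looked at again, which chance alone brings up in about 1 group in 20. Control *APP/PS1* 0005 stood low in its group for the nuclear members as a whole (log2 difference of -0.027 from the Control WT mean), for nuclear complex I (-0.051) and for nuclear complex III (-0.0033), as well as for *Sdhb* (65.0 CPM), and high for *mt-Nd5* (732 CPM). In the same group, *Sdha* had a low library at 253 CPM and *Cox6a2* a high one at 62.7 CPM (0013). In Control WT, the highest *Atp5me* level of 77.2 CPM stood apart. Library 0012 of Control WT, which held choroid plexus transcripts, stood apart for *mt-Co3* (63.6 CPM) and *mt-Atp6* (2.70 CPM). In Slc11a2KD WT, 0022 stood apart for *mt-Co3* (175 CPM), and 0019 for *mt-Atp6* (72.9 CPM) and *Cox8b* (5.63 CPM). Both mitochondrial genes lie wholly within the stretch copied on chromosome 1, and the causes were not tested.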

How the results depend on the processing

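In the counts that follow, the percent in brackets is the share of all genes called in the same fit, in either direction. The number of members called for *APP/PS1* against WT in Control mice, 6 (10.5%), became 38 with limma voom (18.2%), 50 with a fit of the compared groups alone (18.6%), 30 with library 0010 kept (11.3%), 41 with libraries 18 to 23 as a covariate (14.6%), 26 with the choroid plexus score as a covariate (11.4%), 15 with the correction for length and GC content (12.6%), 2 without Control WT 0012 and 0015 (6.91%), and 2 with a log2 limit of 1 (4.89%). The covariate for libraries 18 to 23 is the same in all Control libraries and cannot adjust this comparison. The number called ranged from 3 to 8 with each library left out. It was 3 without Control WT 0012 (8.88%), Control WT 0015 (8.8%) or Control *APP/PS1* 0013 (8.42%). In Slc11a2KD mice the corresponding number, 74 (16.2%), became 16 with a fit of the compared groups alone (6.1%), 46 with the library covariate (9.45%), 46 with the length and GC correction (14.2%), 2 in libraries 18 to 23 alone (2.09%) and 27 with a log2 limit of 1 (5.89%). It ranged from 41 without 0021 (10.7%) to 81 without 0022 (23.7%). For Slc11a2KD *APP/PS1* against Control *APP/PS1* the number, 0, became 39 with DESeq2 (3.09%) and ranged from 0 to 70 with each library left out, 70 being without 0004 (16.4%). For Slc11a2KD WT against Control WT it stayed at 0. For the interaction it was 1 with DESeq2 (0.133%) and stayed at 0 with each library left out. For libraries 18 to 23 against 1 to 4, 78 (18.8%) ranged from 2 without 0022 (0.715%) to 78. The causes were not tested.

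The fitted value of *Cox8b* in Control mice was 1.54 with the choroid plexus score as a covariate (adjusted p = 0.959), which is no direction of change, since the gene was at 0 counts in all 6 Control *APP/PS1* libraries. The difference of *Ndufs7* turned to -0.31 with the length and GC correction (adjusted p = 0.0297). Over the single genes and all alternatives, 7304 values kept direction and side of the threshold, 206 passed it newly and 258 no longer passed. No paired analysis was possible because the library numbers are unique and no replicate number is shared between groups. Few counts limit *Cox6c2* (at most 10 in any library) and *Ndufb4c* (at most 22). *Cox8b* and *mt-Atp6* were at 0 counts in some libraries and reached 347 and 2988 in others, and the part of depth in this was not tested.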

Other observations

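Markers of other cells differed with the genotype beside the members. Of 6 markers of border-associated macrophages, which line the vessels and meninges, 5 fell in Control *APP/PS1* and 3 in Slc11a2KD *APP/PS1* against the WT group of the same treatment (edgeR, adjusted p under 0.05). Over all genes, 4.48% fell and 5.99% rose in the first comparison and 6.41% fell and 9.77% rose in the second, and these shares apply to each marker list that follows. Without Control WT 0012 and 0015, the 2 libraries of that group with choroid plexus transcripts, 2.68% of all genes fell in Control mice, and 5 of the 6 markers. The summed level of these 6 markers ranged from 196 to 397 CPM in Control WT and from 73.9 to 179 CPM in Control *APP/PS1*, and from 215 to 490 CPM in Slc11a2KD WT and from 108 to 168 CPM in Slc11a2KD *APP/PS1*, without overlap under either treatment. Of 6 endothelial markers, 4 fell and 1 rose in Control *APP/PS1*, and 2 fell in Slc11a2KD *APP/PS1*. Without 0012 and 0015, 2 endothelial markers fell in Control mice. Of 10 microglial markers, 4 and 6 fell in the same comparisons, and 4 in Control mice without 0012 and 0015.

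Of 10 choroid plexus markers, 8 were called lower in Control *APP/PS1*. These calls rested on Control WT 0012 and 0015, where *Ttr* was at 996 and 616 CPM against 0 in the other 4 Control WT libraries, and without them 0 markers were called (edgeR, 0 at an unadjusted p under 0.05). In the same list 0 were called in Slc11a2KD *APP/PS1* (0 at an unadjusted p under 0.05). Between libraries 18 to 23 and 1 to 4, 9 were higher, against 9.93% of all genes. Of 6 oligodendrocyte markers, 4 fell in Control mice and 2 in Slc11a2KD mice, but without 0012 and 0015 edgeR called 0 in Control mice (3 lower at an unadjusted p under 0.05). Neuronal markers summed to between 2.81 and 16.2 CPM in any library, of which 2 of 7 fell in Control mice (0 by edgeR without 0012 and 0015, and 2 at an unadjusted p under 0.05) and 0 in Slc11a2KD mice (3 lower at an unadjusted p under 0.05).

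Of 5 neutrophil markers, 3 fell in Control *APP/PS1*, also without 0012 and 0015, and 1 in Slc11a2KD *APP/PS1*. Of 5 lymphocyte markers, 1 fell in Control *APP/PS1* (0 by edgeR without 0012 and 0015, and 1 at an unadjusted p under 0.05) and 0 were called in Slc11a2KD *APP/PS1* (0 at an unadjusted p under 0.05). Of 6 astrocyte markers, 1 rose in each comparison, and of 5 erythroid markers 0 were called in either (0 at an unadjusted p under 0.05).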
